A study of Mus musculus with 6 samples.

Results

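The transcripts of 10 genes that carry out autophagy, and the protein breakdown that ends it, were followed in mouse oocytes: the autophagy genes Atg14, Becn1, Atg5, Atg16l1, Atg7, Map1lc3a, Map1lc3b and Gabarapl2, and the lysosomal protease genes Ctsb and Ctsd. They were taken by name and not by a threshold on measured values, but with earlier results of these data known. They are 10 of 14165 genes in the count table of pooled oocytes and 10 of 54658 genes in that of single oocytes, and all 10 were found in both. Every library was made from the polyadenylated RNA of mouse oocytes at metaphase II (MII), the arrest in which an ovulated oocyte waits for fertilisation, with the Smart-seq2 protocol, which copies whole transcripts into cDNA and amplifies them by PCR. Pools of 10 young oocytes had received control short interfering RNA (siCtrl, 2 pools) or short interfering RNA against Plat (siPlat, 2 pools), the gene of tissue-type plasminogen activator. Untreated single oocytes formed 1 sample of 35 libraries from young mice and 1 sample of 59 libraries from aged mice. The labels gave no strain, no age in weeks and no animals, so the spread between pools may be technical and each age is 1 sample without replicates.

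In autophagy a double membrane grows around cytoplasm, closes to an autophagosome and fuses with a lysosome, where proteases degrade the contents. The lipid kinase complex that starts the membrane contains beclin 1 (Becn1) and its autophagy-specific partner Atg14. A conjugation system then attaches proteins of the Atg8 family, which include LC3A (Map1lc3a), LC3B (Map1lc3b) and GATE-16 (Gabarapl2), to the membrane lipid: Atg7 activates them, and the Atg5 conjugate with Atg12, held on the membrane by Atg16l1, completes the transfer. Cathepsin B (Ctsb), a cysteine protease, and cathepsin D (Ctsd), an aspartic protease, work inside the lysosome. Mouse embryos that lack both maternal and paternal Atg5 are known to arrest before implantation.

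On GRCm38, the genes of the lipid kinase complex lie at chr14:47540893-47570649 (Atg14, minus strand) and chr11:101285952-101302286 (Becn1, minus strand). The conjugation genes lie at chr10:44268358-44364291 (Atg5), chr1:87755870-87792428 (Atg16l1) and chr6:114643097-114860614 (Atg7), and the Atg8 genes at chr2:155276297-155278073 (Map1lc3a), chr8:121590361-121598760 (Map1lc3b) and chr8:111940703-111953612 (Gabarapl2), all on the plus strand. Ctsb lies at chr14:63122462-63145923 on the plus strand and Ctsd at chr7:142375911-142388038 on the minus strand. The tables give 1 count per gene and not the position of its reads. Stretches of 50 bases found in another gene as well made up 36.79% of those in Becn1 transcripts, 32.35% in Ctsd, 12.2% in Gabarapl2, 12.1% in Ctsb, 6.01% in Map1lc3b, 4.46% in Atg14, 0.32% in Atg16l1 and none in the other 3, so the first 6 are less certain. Much of the sharing of Gabarapl2 and Map1lc3b was with the gene models Gm3724 and Gm6055, which were at no more than 0.307 and 0.415 CPM (counts scaled to an equal library total) in any class of oocytes. These low values do not show how reads of the shared stretches were counted.

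The Atg8 proteins are attached through a glycine near their end, which the Atg4 proteases expose by cutting off what follows it. The last 60 coding bases before the stop codon of the 3 Atg8 genes are shown because these genes encode the substrate of all the conjugation genes below. Bases are from the GENCODE annotation of GRCm38, 5′ to 3′, with the last glycine codon in capitals.
Map1lc3a: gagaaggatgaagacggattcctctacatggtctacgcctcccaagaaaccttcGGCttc
Map1lc3b: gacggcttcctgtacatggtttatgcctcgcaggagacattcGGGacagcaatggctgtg
Gabarapl2: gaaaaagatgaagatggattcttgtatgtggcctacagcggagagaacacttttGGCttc
The glycine is codon 120 of 121 in Map1lc3a, codon 120 of 125 in Map1lc3b and codon 116 of 117 in Gabarapl2, so 1, 5 and 1 codons follow it. Over the whole coding sequence, 74.7% of aligned bases were identical between Map1lc3a and Map1lc3b, 55.2% between Map1lc3a and Gabarapl2, and 54.7% between Map1lc3b and Gabarapl2.

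Promoters, taken as 250 bases before to 50 after the RefSeq start (GRCm38.p6), were found for 6 of the 10 genes: Atg14, Atg5, Atg7, Map1lc3b, Gabarapl2 and Ctsd. The 6 bases CACGTG, which read the same on both strands and form the core of the CLEAR element that the lysosomal regulator TFEB binds, were present in 4 of the 6. The same letters were in 7.15% of all 32851 promoters searched. Ctsd had them at positions -245 and -98, Atg7 at -132, Atg5 at -14 and Atg14 at -1 from the start, and the windows of Map1lc3b and Gabarapl2 did not hold these letters. The RefSeq start lies inside the GENCODE gene by 27999 bases for Atg7, 2215 for Atg14, 211 for Ctsd and 77 for Map1lc3b, so the Ctsd motif at -98 is within that gene and the one at -245 before it. The windows of Ctsd, the protease gene with the motif, and of Atg5, the gene with the highest level, are shown with the motif in capitals; they lie at chr7:142387778-142388077 on the minus strand and chr10:44268089-44268388 on the plus strand.
Ctsd promoter: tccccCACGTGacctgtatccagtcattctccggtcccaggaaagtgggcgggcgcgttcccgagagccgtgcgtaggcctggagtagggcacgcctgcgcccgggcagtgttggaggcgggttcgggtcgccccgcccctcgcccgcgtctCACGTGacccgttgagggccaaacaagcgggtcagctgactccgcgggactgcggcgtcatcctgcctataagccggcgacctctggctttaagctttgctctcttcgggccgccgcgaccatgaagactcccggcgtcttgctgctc
Atg5 promoter: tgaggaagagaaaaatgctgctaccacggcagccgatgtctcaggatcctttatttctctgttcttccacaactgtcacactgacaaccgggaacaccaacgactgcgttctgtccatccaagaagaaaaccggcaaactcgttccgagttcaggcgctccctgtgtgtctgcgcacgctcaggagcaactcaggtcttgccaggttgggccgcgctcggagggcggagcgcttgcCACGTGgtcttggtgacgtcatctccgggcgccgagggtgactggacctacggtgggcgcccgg
A match describes the letters only, and binding was not measured in these samples.

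The pools held 12142884 to 17475952 gene counts, and pools of the same treatment differed by more than counting error. Plat was at 441 and 439 CPM in the siCtrl pools and at 51.4 and 39.0 CPM in the siPlat pools, a log2 fold change of -3.28 (edgeR adjusted p = 6.21e-06). Young oocytes held 5480050 to 11894782 counts and aged oocytes 2018226 to 9502184. In 21 aged oocytes the 37 mitochondrially encoded genes took 6.78 to 61.6% of the gene counts, against at most 2.97% in the other 38 and 1.92% in the young oocytes. These 21 libraries stood apart, with a median of 9394 genes detected against 16288 in the other aged oocytes, so values for aged oocytes are given with all 59, for the 38 with a share up to 5% and for the 21 above it; the 2 classes come from the data and are not groups of the study. The summed level of 12 oocyte marker genes had a median of 20330 CPM in young oocytes, 19108 CPM in aged oocytes up to 5% and 3274 CPM in those above 5%. Not every marker was lower above 5%: Dazl was at 1292 CPM up to 5% and 1387 CPM above it. Figla was at 2.03 and 2.07 CPM, and the other markers were lower above 5%. No pair of single-oocyte libraries had identical counts.

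Set per kilobase of exon, the levels of the 10 genes spanned a wide range in young oocytes. Atg5 led with a median of 241 CPM per kb, followed by Atg16l1 with 36.8, Atg14 with 17.8 and Becn1 with 10.9 CPM per kb. Each of the first 3 was above the next gene in 35 of 35 oocytes. Ctsd (7.20 CPM per kb), Gabarapl2 (5.79), Map1lc3b (5.13) and Map1lc3a (3.94) came next, and Atg7 (1.54) and Ctsb (1.30) were last. From Becn1 down, neighbours in this order changed places in some oocytes, Becn1 being above Ctsd in 29 of 35 and Atg7 above Ctsb in 22 of 35. In aged oocytes up to 5% the first 4 kept their places, and Ctsb (2.93 CPM per kb) lay above Atg7 (1.24) in 38 of 38.

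The spread between young oocytes differed from gene to gene. The coefficient of variation of the CPM was 6.96% for Atg5, 14.9% for Atg16l1 and 15.6% for Becn1, and 71.7% for Map1lc3a and 45.9% for Atg7, which are among the genes with fewest counts. Map1lc3a ran from 1.36 to 20.02 CPM in young oocytes and was detected in all 35.

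The pools and the single oocytes were counted in separate tables, so their levels are set side by side without a test. The siCtrl pools had Atg5 first as well, at a mean of 387 CPM per kb, then Atg14 (36.8), Gabarapl2 (23.4), Becn1 (14.8) and Map1lc3b (13.6). The place of Atg16l1 differed most, at 7.47 CPM per kb in these pools and 36.8 CPM per kb in young single oocytes.

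**Figure D1:**
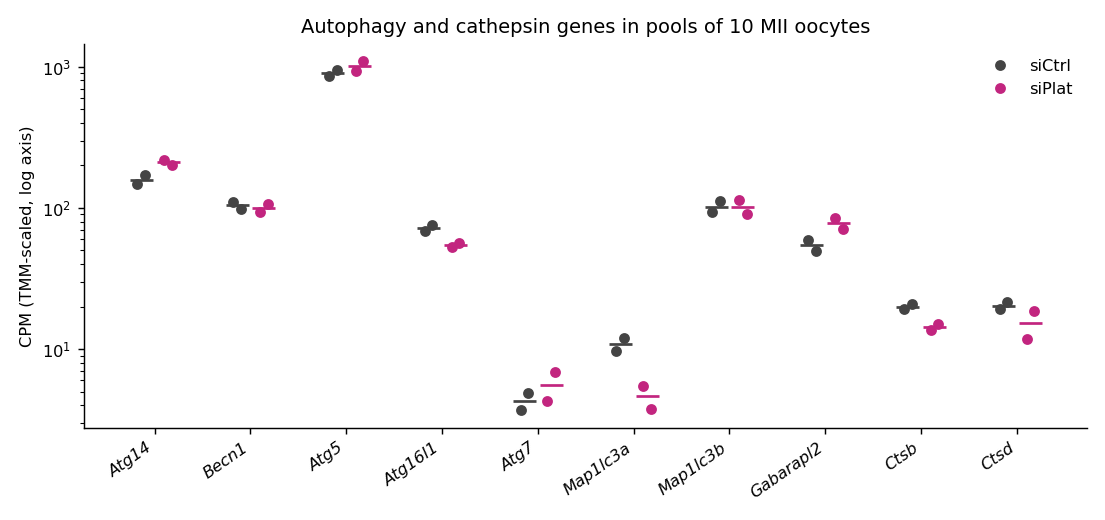
Level of each gene (CPM after TMM scaling, log axis) in 2 siCtrl pools and 2 siPlat pools of 10 MII oocytes; points are pools and bars are means. Both siPlat pools lie above both siCtrl pools for 2 genes (23.5% of all genes) and below them for 4 (25.8%), and the treatments overlap for the others. Map1lc3a shows the widest gap, with 9.69 and 12.01 CPM in siCtrl and 5.52 and 3.77 CPM in siPlat.

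The first comparison asked whether the depletion of Plat changed these transcripts. None of the 10 genes passed the test of edgeR (adjusted p under 0.05 over 11136 genes, which called 3.54% of all genes), and none was called by DESeq2 or limma-voom. At an unadjusted p under 0.05 edgeR gave 3 of the 10, 2 higher and 1 lower in siPlat, against 18.8% of all genes. Both siPlat pools were above both siCtrl pools for 2 genes (23.5% of all genes) and below them for 4 (25.8% of all genes). The median log2 fold change of the 10 was -0.04, and that of all genes -0.03. In pools, fewer oocytes with a transcript and less of it in each oocyte cannot be told apart.

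Of the genes that start the membrane, Atg14 was at 147 and 171 CPM in the siCtrl pools and at 219 and 201 CPM in the siPlat pools. Both siPlat pools were higher, with a log2 fold change of 0.40 (SE 0.17, 95% interval 0.04 to 0.77, edgeR adjusted p = 0.219). Becn1, at 110 and 98.9 CPM in siCtrl and 93.3 and 106 CPM in siPlat, overlapped between the treatments (-0.07, 95% interval -0.45 to 0.32). Its exons share 43.93% of their length with Cntd1 on the opposite strand, and whether the counting used the strand was not given in the sources used here. Cntd1 itself was at 0.952 to 2.51 CPM in the 4 pools.

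Among the conjugation genes, Atg5 was at 866 and 955 CPM in siCtrl and at 928 and 1092 CPM in siPlat. The ranges overlapped, and the interval of the log2 fold change ran from -0.18 to 0.48. Atg16l1 was at 68.3 and 75.4 CPM in siCtrl and at 53.0 and 56.6 CPM in siPlat. Both siPlat pools were lower for Atg16l1, by a log2 fold change of -0.39 (SE 0.18, 95% interval -0.79 to 0.01, edgeR adjusted p = 0.279). Atg7, which had few counts, was at 3.70 and 4.87 CPM in siCtrl and at 4.31 and 6.91 CPM in siPlat, and its interval was wide, from -0.51 to 1.29.

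The 3 Atg8 genes differed in direction. Map1lc3a was at 9.69 and 12.01 CPM in siCtrl and at 5.52 and 3.77 CPM in siPlat. Both siPlat pools were lower, 2.34-fold in the fit, with a log2 fold change of -1.22 (SE 0.35, 95% interval -1.99 to -0.46). The unadjusted p was 0.00458 and the edgeR adjusted p 0.0818, so Map1lc3a did not pass the threshold; without siPlat 1 it did, at -1.53 (edgeR adjusted p = 0.0291). That fit has 1 siPlat pool, which is assumed to vary like the siCtrl pools. Gabarapl2 was at 59.2 and 49.4 CPM in siCtrl and at 85.1 and 71.0 CPM in siPlat. Its siPlat pools were both higher (log2 fold change 0.52, SE 0.19, 95% interval 0.10 to 0.95, edgeR adjusted p = 0.173), and without siPlat 2 the value was 0.66 (edgeR adjusted p = 0.0386), again with 1 siPlat pool assumed to vary like siCtrl. Map1lc3b, at 93.1 and 111 CPM in siCtrl and 113 and 90.2 CPM in siPlat, overlapped, with an interval of -0.42 to 0.41. The difference between the members of the family was not tested.

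Of the proteases, Ctsb was at 19.1 and 20.98 CPM in siCtrl and at 13.6 and 15.1 CPM in siPlat. Ctsd was at 19.2 and 21.5 CPM in siCtrl and at 11.8 and 18.8 CPM in siPlat. Both siPlat pools were below both siCtrl pools for each gene, and neither passed the test. The log2 fold changes were -0.48 (SE 0.25, 95% interval -1.02 to 0.06, edgeR adjusted p = 0.330) for Ctsb and -0.41 (SE 0.28, 95% interval -1.02 to 0.21, edgeR adjusted p = 0.481) for Ctsd. Ctsb shares 12.79% of its exon length with Fdft1 on the opposite strand, a gene of cholesterol synthesis with a log2 fold change of -0.58 in the pools (edgeR adjusted p = 0.113), and its part in the Ctsb counts was not tested.

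Of 168 genes in 14 lists of autophagy and lysosome genes, 136 were tested in the pools and 3 passed, 1 higher (2.13% of all genes were called higher) and 2 lower (1.41% of all genes). Bnip3l, a mitophagy receptor, rose from 301 and 316 CPM in siCtrl to 531 and 438 CPM in siPlat (log2 fold change 0.65, edgeR adjusted p = 0.0490). Atp6ap2, an accessory subunit of the lysosomal proton pump, fell from 64.7 and 58.5 CPM to 33.1 and 23.6 CPM (-1.12, edgeR adjusted p = 0.0208). Deptor, an inhibitor of the kinase mTOR, fell from 106 and 90.9 CPM to 46.1 and 62.8 CPM (-0.85, edgeR adjusted p = 0.0461). Without siCtrl 1 none of these calls was made and Cst3, which encodes the protease inhibitor cystatin C, was the only call. Atp6ap2 alone of the 3 was called without siCtrl 2 (2 calls) and without siPlat 1 (5 calls), and all 3 were called without siPlat 2 (8 calls). The median log2 fold change of the 136 was -0.09. The list of protease sorting to lysosomes had the lowest median of the lists, -0.72 over 9 genes, with none called and both siPlat pools below both siCtrl pools for 6 of the 9, beside 25.8% of all genes.

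**Figure D2:**
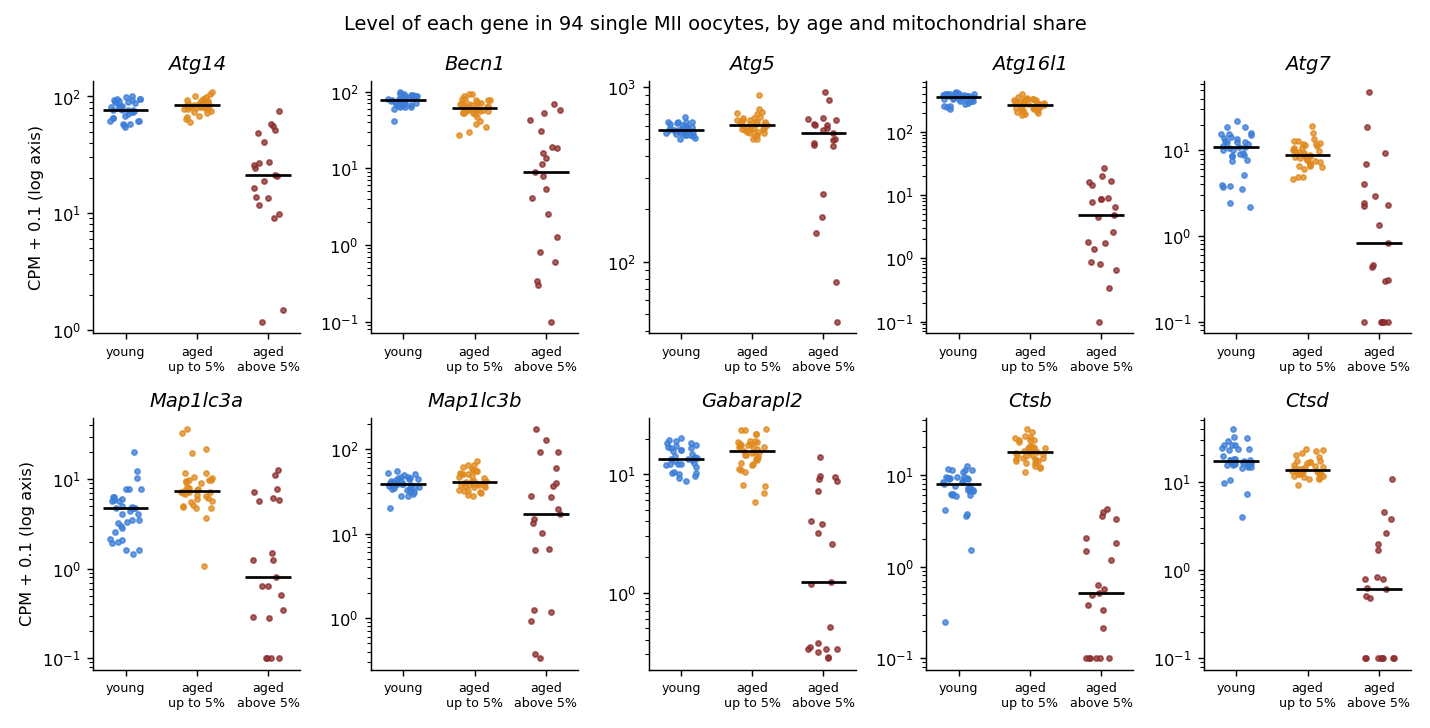
Level of each gene (CPM plus 0.1, log axis) in single oocytes: 35 young, 38 aged with a mitochondrial share up to 5% and 21 aged above 5%. Points are oocytes and bars are medians; Ctsb is the gene whose aged oocytes up to 5% lie highest above the young ones, with medians of 17.7 and 7.86 CPM, and Atg16l1 the gene whose oocytes above 5% lie lowest against the other aged oocytes.

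The second comparison asked how aged oocytes differed from young ones. With 1 sample of each age it gives no test, oocytes are not replicates of an age, and the ratios below describe these libraries. They are log2 ratios of summed CPM with a pseudocount of 1 CPM, which understates the change of low genes. With all 59 aged oocytes, 1 of the 10 genes was at least 1.5-fold higher than in young oocytes (9.45% of all genes with at least 5 CPM) and 2 were at least 1.5-fold lower (9.38%). With the 38 oocytes up to 5%, 2 of the 10 were at least 1.5-fold higher (8.87% of all genes) and 0 were lower (1.87%). The median log2 ratio of the 10 was 0.09 in the 38 oocytes, beside 0.08 over all genes.

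Ctsb had the highest ratio of the 10. It ran from 0.151 to 12.4 CPM in young oocytes, with a median of 7.86 CPM, and from 10.6 to 31.5 CPM in aged oocytes up to 5%, with a median of 17.7 CPM. All 38 aged oocytes lay above the young median, 34 of the 38 lay above every young oocyte, and 0 of 35 young oocytes reached the aged median. An aged median above the whole young range was found for 4.18% of all genes. Summed over oocytes, Ctsb was at 7.73 CPM (exact Poisson interval 7.42 to 8.05) in young and 18.6 CPM (18.0 to 19.1) in aged oocytes up to 5%, a log2 ratio of 1.16 or 2.24-fold, at the 99.1 percentile of the ratios of all genes. Over all 59 aged oocytes, with the 21 above 5% that had at most 4.17 CPM, the log2 ratio was 0.77. The intervals cover counting error only, as PCR reads without molecular identifiers are not independent molecules.

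The Ctsb value also moved with the scale. Scaled to the ERCC spike-in RNAs in place of gene counts, the median of all genes shifted to -0.72, and Ctsb was at 0.40 in aged oocytes up to 5% against young ones; over all aged oocytes it turned to -0.59, with the median of all genes at -1.47. One young oocyte had 1 Ctsb count among 6638687, and the next lowest had 1.42 CPM; the count of genes past 1.5-fold in the 38 oocytes was 2 without it as well. Fdft1, the gene that overlaps Ctsb on the other strand, was at 291 CPM in young and 372 CPM in aged oocytes up to 5%, a log2 ratio of 0.35. The Pearson correlation of Ctsb with Fdft1 over oocytes, which share library and depth, was 0.34 in 35 young and 0.27 in 38 aged oocytes up to 5%.

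Ctsb is also abundant in macrophages, and the markers of other cell types were read beside it. Of 12 macrophage and blood genes, 10 had at least 1 count in any young oocyte and 7 in any aged oocyte up to 5%. Summed over oocytes, only 3 of the 12 were at 1 CPM or more in each class. The summed level of the 12 ran from 6.20 to 33.6 CPM and from 13.4 to 39.8 CPM, with medians of 25.5 and 24.6 CPM. These were Laptm5, at 12.004 and 14.4 CPM, C1qb, at 9.997 and 8.19 CPM, and Cd68, at 2.62 and 2.12 CPM, beside Ctsb at 7.73 and 18.6 CPM. C1qa and Lyz2 were at 0 in young oocytes, and C1qc, Lyz2, Adgre1, Tyrobp and Hba-a1 in aged oocytes up to 5%. Of 12 cumulus and granulosa genes, 8 had a count in young oocytes and 10 in aged oocytes up to 5%, but only Cyp19a1 was at 1 CPM or more. The summed medians were 69.5 and 67.5 CPM, nearly all of it Cyp19a1, with Amhr2 at 0 in both classes. Of 9 genes of stroma, theca and endothelium, 6 and 7 had a count and 4 were at 1 CPM or more in each class. The summed medians were 173 and 111 CPM, mostly Pecam1.

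Map1lc3a was the other gene past 1.5-fold. It ran from 1.36 to 20.02 CPM in young oocytes (median 4.65 CPM) and from 0.985 to 36.2 CPM in aged oocytes up to 5% (median 7.31 CPM). The ranges overlapped widely, while 36 of the 38 aged oocytes lay above the young median. Its log2 ratio was 0.82 or 1.76-fold, 0.56 from medians over oocytes in place of sums, and 0.09 when scaled to ERCC. Over all 59 aged oocytes it was 0.57. The other Atg8 genes were nearer to the median of all genes, with log2 ratios of 0.19 for Map1lc3b and 0.11 for Gabarapl2, and both were below 0 on the ERCC scale, at -0.63 and -0.68.

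Ctsd did not go the way of Ctsb. It ran from 3.93 to 39.3 CPM in young oocytes (median 16.9 CPM) and from 8.99 to 23.5 CPM in aged oocytes up to 5% (median 13.4 CPM). Only 8 of the 38 aged oocytes lay above the young median. The log2 ratio was -0.37, and -0.74 over all 59 aged oocytes, where Ctsd was one of the 2 genes past 1.5-fold lower. On the ERCC scale Ctsd was at -1.18 in the 38 oocytes. Its exons share 34.37% of their length with the gene model Gm49369 on the same strand, which was at 0 in all oocytes. How reads in the shared exons were counted was not given, so this 0 does not show that Ctsd lost no reads.

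Atg16l1 was the other gene past 1.5-fold lower over all aged oocytes, at a log2 ratio of -0.78. In aged oocytes up to 5% its log2 ratio was -0.34, and -1.18 on the ERCC scale. It had 187 to 395 CPM there (median 262 CPM), against 232 to 416 CPM (median 354 CPM) in young oocytes. The ranges overlapped, but 10 of the 38 aged oocytes lay below every young oocyte and only 1 above the young median. Its partner Atg5 ran from 502 to 895 CPM (median 608 CPM) in those aged oocytes and from 502 to 675 CPM (median 568 CPM) in young ones, a log2 ratio of 0.10 that was -0.74 on the ERCC scale. The activating enzyme gene Atg7 had medians of 8.67 CPM in aged oocytes up to 5% and 10.7 CPM in young ones. Its log2 ratio was -0.23, and -1.02 on the ERCC scale.

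Scaled to gene counts, the genes of the lipid kinase complex stayed within 1.5-fold, but not when scaled to ERCC. Atg14 ran from 54.1 to 101 CPM in young and from 59.7 to 108 CPM in aged oocytes up to 5%, a log2 ratio of 0.08 beside a median of 0.08 over all genes, which was -0.75 on the ERCC scale beside a median of -0.72. Becn1 ran from 41.1 to 97.1 CPM (median 76.7 CPM) in young and from 27.2 to 92.8 CPM (median 61.8 CPM) in aged oocytes up to 5%. Its log2 ratio was -0.29, or -0.58 over all aged oocytes, and 8 of the 38 oocytes lay above the young median. On the ERCC scale Becn1 was at -1.12 in the 38 oocytes. Cntd1, which overlaps Becn1, was at 0.669 and 0.956 CPM in the 2 classes.

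**Figure D3:**
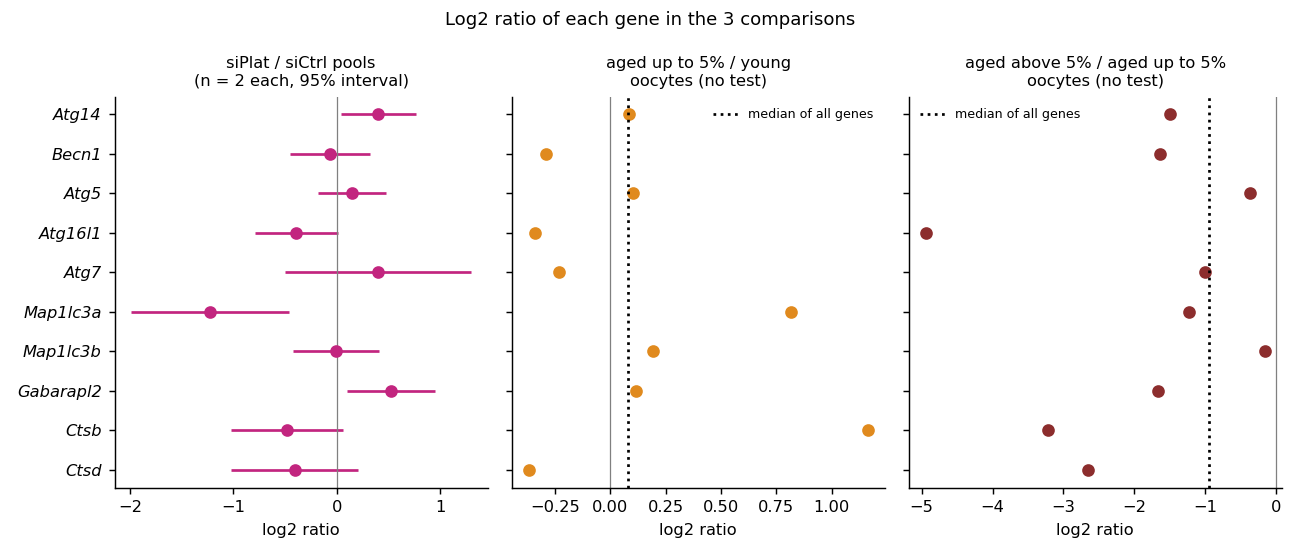
Log2 ratio of each gene between siPlat and siCtrl pools (edgeR fold change with 95% interval, 2 pools a treatment), between aged oocytes up to 5% mitochondrial share and young oocytes, and between aged oocytes above and up to 5% (ratios of summed CPM, no test). The dotted lines mark the median of all genes at 0.08 and -0.94; Ctsb is farthest right in the middle panel at 1.16 and Atg16l1 farthest left in the right panel at -4.95.

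The third comparison set the 21 aged oocytes above 5% against the 38 up to 5%, which also enter the comparison with young oocytes. All 10 genes had a log2 ratio below 0, of which Atg5 and Map1lc3b turned to 0.12 and 0.32 with mitochondrially encoded genes left out of the total, and 8 of them were at least 1.5-fold lower, in a comparison where 58.5% of all genes were lower by that much and the median gene was at -0.94. The exceptions were Atg5 and Map1lc3b, and the place of Map1lc3b depended on the setting. With the classes split at a share of 10%, Map1lc3b was at -0.90 beside a median of all genes of -1.24, and only Atg5 stayed within 1.5-fold. From medians over oocytes in place of sums, Map1lc3b was at -1.23 beside -1.63 for the median of all genes. The median of the oocytes above 5% lay below the whole range of the other aged oocytes for 9 of the 10 genes, all but Atg5, and for 62.1% of all genes. Set against the median of all genes, 5 of the 10 were still at least 1.5-fold lower and Map1lc3b was at least 1.5-fold higher. The share of all genes past 1.5-fold on that scale was not counted, so these numbers are not a result particular to the 10. On the ERCC scale all 10 were at least 1.5-fold lower, with the median of all genes at -2.47.

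The genes did not differ to the same degree. Atg16l1 ran from 0 to 27.1 CPM in oocytes above 5% (median 4.75 CPM), against at least 187 CPM in each of the 38 others. The classes did not overlap, which held for 16.7% of all genes, and the log2 ratio was -4.95. Ctsb ran from 0 to 4.17 CPM (median 0.415 CPM), against at least 10.6 CPM in each of the others, with a log2 ratio of -3.22. Ctsd ran from 0 to 10.6 CPM (median 0.506 CPM) and had a log2 ratio of -2.66. It overlapped the other class through 1 oocyte.

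Atg5 had the smallest difference of the 3 conjugation genes. It ran from 45.3 to 927 CPM with a median of 546 CPM, and 11 of the 21 oocytes lay at or above the lowest of the 38 others. Its log2 ratio was -0.37, while Atg7, with 0 to 47.3 CPM and a median of 0.736 CPM, was at -1.002. A single oocyte held 204 of the 398 Atg7 counts of the class, and without it the log2 ratio was -1.73. Thus Atg5 and Atg16l1, which act in 1 complex as proteins, lay at -0.37 and -4.95 for the same oocytes. Relative to the median of all genes, Atg5 was at 0.58 and Atg16l1 at -4.00.

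Map1lc3b lay on both sides of the other aged oocytes. It ran from 0.233 to 172 CPM with a median of 16.7 CPM; 4 of the 21 lay above the highest of the other aged oocytes (72.4 CPM), and 14 lay below the lowest (27.9 CPM). The log2 ratio of the sums, -0.16, therefore joins very high and very low oocytes, and it was -0.51 without the oocyte with most counts. Gabarapl2 ran from 0.178 to 13.8 CPM (median 1.13 CPM) and was at -1.67. Map1lc3a ran from 0 to 12.6 CPM (median 0.717 CPM) and was at -1.23.

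Of the lipid kinase genes, Atg14 ran from 1.08 to 74.7 CPM (median 21.1 CPM) and was at -1.50. Becn1 ran from 0 to 67.9 CPM (median 8.92 CPM) and was at -1.64. Only 1 oocyte for Atg14 and 5 for Becn1 reached the lowest of the other aged oocytes.

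**Figure D4:**
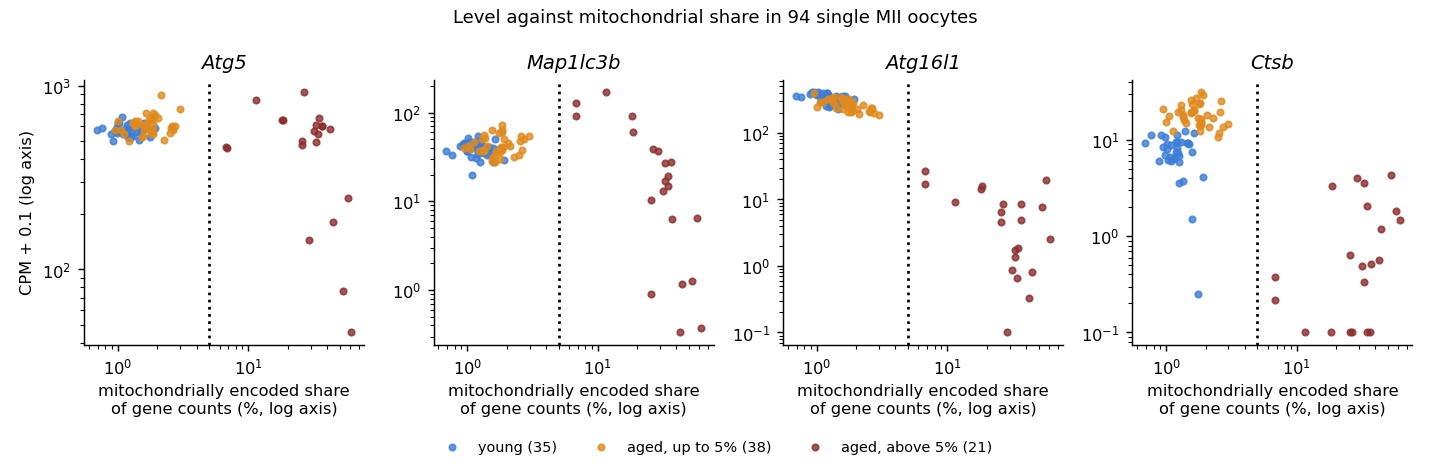
Level (CPM plus 0.1, log axis) of Atg5, Map1lc3b, Atg16l1 and Ctsb against the mitochondrially encoded share of gene counts (percent, log axis) in 94 single oocytes; points are oocytes and the dotted line marks 5%. Above 5% Map1lc3b is lower at higher shares, Atg5 stays near its level below 5% in most oocytes, and Ctsb is at 4.17 CPM or less at all shares.

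Within the 21 oocytes the genes followed the mitochondrial share differently. Spearman's rho with the share was -0.77 for Map1lc3b, -0.72 for Becn1, -0.63 for Atg14 and -0.59 for Gabarapl2. It was -0.40 for Atg16l1, -0.35 for Atg5, -0.31 for Map1lc3a and -0.22 for Atg7, and above 0 for Ctsd (0.24) and Ctsb (0.41). Ctsd and Ctsb were near the floor, with medians of 0.506 and 0.415 CPM and no count in 8 and 6 of the 21 oocytes. These are descriptions over 21 oocytes of 1 sample, and the share and the CPM have the same gene total below the line, so a high share lowers every other gene in itself. With mitochondrially encoded genes left out of the total, 8 genes were past 1.5-fold as before, the median of all genes was at -0.46 in place of -0.94, and Atg7 was at -0.60.

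Oocytes above 5% without a single count numbered 8 for Ctsd, 6 for Ctsb, 6 for Atg7, 4 for Map1lc3a, 1 for Becn1 and 1 for Atg16l1. All young and all other aged oocytes had a count of each of the 10 genes. After each library was thinned to 2018226 counts, the share of oocytes above 5% with a Ctsb count was 66.7% (71.4% before thinning), against 100% of the other aged and 97.1% of the young oocytes. For Ctsd it was 61.9%, both before and after thinning, against 100% in the other classes.

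Of the 12 macrophage and blood genes 7 had a count above 5%, and 5 were at 1 CPM or more. The median sum was 9.99 CPM, the highest gene being Laptm5 at 9.32 CPM, with Ptprc, C1qa, C1qc, Adgre1 and Tyrobp at 0. In 3 of the 21 oocytes the sum was above the 39.8 CPM that no oocyte of the other classes exceeded. The highest reached 173 CPM, of which 86.7 CPM was Hba-a1, a globin gene, and Ctsb was at 3.88 CPM in it, near the top of its range above 5%. The next reached 59.5 CPM, of which 49.5 CPM was Hba-a1, with Ctsb at 1.08 CPM. Without the oocyte at 173 CPM, which held the most Ctsb counts of the 21, the log2 ratio of Ctsb was -3.35. The cumulus and granulosa genes had a median of 5.69 CPM and the stroma, theca and endothelium genes one of 16.2 CPM. Their part in the results above was not tested.

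**Figure D5:**
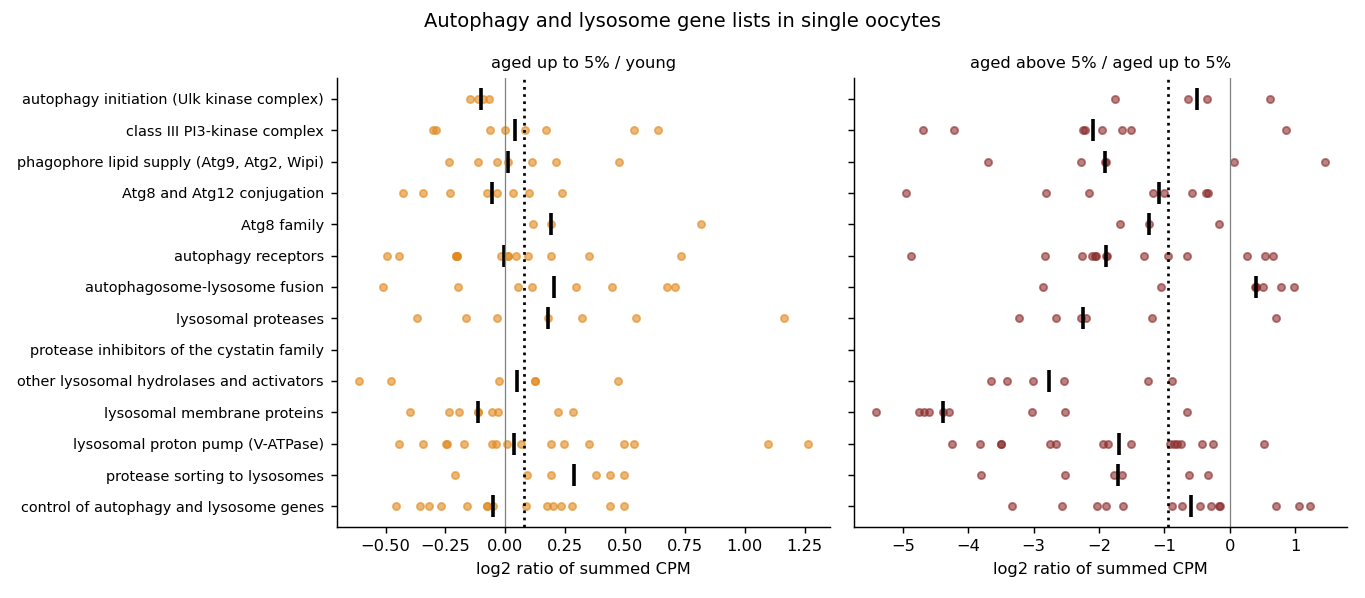
Log2 ratio of summed CPM for the genes of 14 autophagy and lysosome lists that had at least 5 CPM, for aged oocytes up to 5% against young oocytes and for aged oocytes above 5% against those up to 5%. Points are genes, black bars list medians and dotted lines the median of all genes; lysosomal membrane genes lie lowest in the right panel, with a median of -4.39, and no cystatin gene reached the level for a point.

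The other genes of the pathway were read from the same 14 lists. Between aged oocytes up to 5% and young ones, 111 of the 168 genes had at least 5 CPM, 8 of them at least 1.5-fold higher (8.87% of all genes) and 1 at least 1.5-fold lower (1.87%), with a median log2 ratio of 0.01 beside 0.08 over all genes. Atp6v1d, a subunit of the lysosomal proton pump, differed most, from 11.996 to 44.8 CPM in young oocytes (median 24.5 CPM) and from 26.9 to 121 CPM in aged ones (median 57.8 CPM), a log2 ratio of 1.26 or 2.40-fold. Ctsb, at 1.16, was next to it among the genes named. Of the 7 lysosomal proteases with at least 5 CPM, only Ctsb was past 1.5-fold, and the median of the list was 0.18.

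Named by the largest ratio of each list, several other genes lay past 1.5-fold. The autophagy receptor gene Optn was at 0.73, with medians of 13.7 CPM in aged oocytes up to 5% and 7.98 CPM in young ones. Plekhm1, which helps autophagosomes fuse with lysosomes, was at 0.71, and Uvrag, a beclin 1 partner, at 0.64. Arsb, a lysosomal sulfatase, was the 1 gene past 1.5-fold lower, at -0.61, with medians of 22.3 and 35.4 CPM. The leading genes of the other lists stayed within 1.5-fold: the initiation gene Atg101 (-0.15), the lipid scramblase gene Atg9a (0.47), the processing protease gene Atg4a (-0.43), the cystine exporter gene Ctns (-0.40), Gnptab of protease sorting (0.50) and Prkaa2, a catalytic subunit of AMPK (0.50). No member of the cystatin list reached 5 CPM.

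Above 5%, the lists differed more from each other. Of 108 genes with at least 5 CPM, 78 were at least 1.5-fold lower than in the other aged oocytes (58.5% of all genes) and 10 at least 1.5-fold higher (14.8%), with a median log2 ratio of -1.66 beside -0.94 over all genes. All 9 lysosomal membrane genes were lower, with a median of -4.39, among them Ctns, at 0.0935 CPM against 26.9 CPM (-4.67). The 8 genes of autophagosome-lysosome fusion had a median of 0.40, with 2 higher and 2 lower, and Plekhm1 was at 0.40. The class III PI3-kinase complex, to which Becn1 and Atg14 belong, had a median of -2.09 over 8 genes, and the conjugation genes, with Atg5, Atg16l1 and Atg7, one of -1.08 over 8.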

How the data were processed

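The authors deposited whole-number read counts per gene in 2 tables, one for 4 pools and one for 94 single oocytes, neither normalised. Per the submitters' processing notes, the tools were STAR 2.7.10b and HTSeq 0.13.5 on the build mm10; their roles, the annotation, filters and strand setting are not given in the sources used here. The 92 ERCC spike-in entries stayed out of gene totals. The 10 genes and the pathway and marker lists were chosen with earlier results of these data known.

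Pools were tested in R 4.3.3 with edgeR 4.0.16, by its robust quasi-likelihood F test on the whole table, with TMM factors and the default filter on low counts (at least 10 counts, and 15 in total), with Benjamini-Hochberg adjustment and a threshold of 0.05. P-values measure only the spread between these pools. DESeq2 1.42.0 and limma 3.58.1 were alternatives. CPM of the pools are after TMM scaling.

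For oocytes, counts were summed over each class and given as CPM, and log2 ratios used a pseudocount of 1 CPM. Genes with a mean of at least 5 CPM over both classes entered comparisons, with a threshold of 1.5-fold and exact Poisson intervals at 95% confidence. Levels per kb divide CPM by the union of GENCODE exons on GRCm38. Named beside the 10 genes were pathway genes called by edgeR, the gene with the largest ratio between aged oocytes up to 5% and young oocytes in each list, the gene most like each of the 10 over young oocytes, and the highest markers. Scripts were tested on simulated data. Alternatives changed the normalisation, the filter, the pseudocount, the scale, the mitochondrial share and the libraries included.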

Additional observations from a re-analysis of the deposited data

How the results depend on the processing

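Depth limits the statements on Atg7, Map1lc3a, Ctsb and Ctsd, which have few counts, and 2 pools a treatment limit all tests. Without 1 pool at a time, when the lone pool of a treatment is assumed to vary like the other treatment, the number of the 10 genes called ran from 0 to 1, with Map1lc3a called without siPlat 1 and Gabarapl2 without siPlat 2, and the number of pathway genes called ran from 1 to 8. That number was 5 with no filter on low counts, 5 with DESeq2 and 1 with a replicate block, where Atp6ap2 was called. The labels' replicate numbers form only 2 pairs, and the deviations of same-numbered pools had a correlation of -0.06 over 11136 genes, so the numbers were not read as pairs, and the block called 0 of the 10 genes. Of 90 values for single genes in the pools, 82 kept their direction and side of the threshold. The sign changed for Becn1, to 0.016 without siCtrl 1 and 0.021 without siPlat 1 (from -0.15 to 0.021 without any 1 pool), and for Map1lc3b, to 0.0098 with RLE factors, 0.0070 with DESeq2, and from -0.18 to 0.16 without any 1 pool. All genes called numbered 394 in the reported fit, 157 without siCtrl 1, 160 without siCtrl 2, 713 without siPlat 1, 1145 without siPlat 2, and 645 with DESeq2.

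In single oocytes, the count past 1.5-fold over all aged oocytes was 10 on the ERCC scale and 5 with a pseudocount of 0.1 CPM, in place of 3. For aged oocytes up to 5% it was 8 on the ERCC scale and 1 each with the median over oocytes and a pseudocount of 5 CPM, in place of 2. The median of all genes on the ERCC scale was itself past 1.5-fold lower, at -1.47 over all aged oocytes and -0.72 in those up to 5%. How many of all genes were past 1.5-fold under these settings was not counted. Without the oocyte above 5% with most counts of each gene, 8 of the 10 were past 1.5-fold as before. These 8 were already lower, and leaving out a high oocyte moved each further down, so their number could not fall. This alternative was chosen after seeing the data, as was leaving out the young oocyte lowest in Ctsb. Of the log2 ratios of single genes under these alternatives, 144 lay within the counting error of the reported ratio and 145 moved outside it. For 1 more, past 1.5-fold as reported, the sign changed: Ctsb turned to -0.59 over all aged oocytes on the ERCC scale. The 144 include every ratio taken without the minimum of 5 CPM, a setting that cannot change a ratio. Whether each oocyte received an equal amount of spike-in was not tested, nor was the cause of these differences.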

Other observations

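Over the 45 pairs of the 10 genes, Pearson's r of log2(CPM + 1) ran from -0.26 to 0.54 in 35 young oocytes, with a median of 0.20, and from -0.44 to 0.61 in 38 aged oocytes up to 5%, with a median of 0.05. The highest pair was Atg14 with Atg7 in young oocytes, at 0.54, and Becn1 with Atg16l1 in aged oocytes up to 5%, at 0.61. Values of 1 oocyte share library and depth, so these are descriptions.

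The gene most like each of the 10 was sought among 8229 genes over the 35 young oocytes by the same r, and the value in the 38 aged oocytes up to 5% is set beside it. Becn1 was most like Traip, at 0.84 in young and 0.63 in aged oocytes. Atg16l1 was most like Klhl8 (0.77 and 0.64), Map1lc3a most like Zp2, a zona pellucida gene (0.76 and 0.59), and Atg7 most like Fam53a (0.81 and 0.50). Gabarapl2 with Grip1os3 (0.69 and 0.44), Ctsd with Bap1 (0.79 and 0.31), Map1lc3b with E330021D16Rik (0.66 and 0.22) and Ctsb with Mrps7 (0.75 and 0.20) were lower in the aged oocytes. Atg14 with Yipf4 (0.71 and -0.09) and Atg5 with Bbs4 (0.64 and -0.12) had no such relation there. Each named gene is the highest of many. In young oocytes r was above 0.5 with 1036 genes for Atg7, 820 for Ctsd and 287 for Map1lc3a, down to 37 for Atg5 and 36 for Map1lc3b. As the highest of 8229 values, the young figures are raised by the choice itself, and the aged figures are not.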
